A study of Mus musculus with 14 samples.

Results

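Gamma-aminobutyric acid (GABA) is the main inhibitory transmitter of the adult brain, and 26 genes of its system were followed through ischemic and contralateral hemispheres of mice with and without the neuropeptide cortistatin. They were taken by gene symbol from the expression table of 46904 genes and comprise 14 GABA-A receptor subunits, 2 GABA-B receptor subunits, 2 proteins of the inhibitory postsynapse, 3 enzymes of GABA synthesis and breakdown, 3 GABA transporters and 2 chloride transporters. These are not all genes of their families, so a sum or share over them covers only the genes named. All 26 symbols were found in the table, and all 26 passed the filter for the test (above 0 in at least 2 libraries).

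GABA-A receptors are chloride channels built from 5 subunits, usually of alpha, beta and gamma or delta type, while rho subunits form channels of their own. GABA-B receptors are pairs of G protein-coupled subunits. Neurons make GABA from glutamate with 2 glutamate decarboxylases, load it into vesicles and recover it with neighbouring astrocytes through membrane transporters. Whether an open GABA-A channel inhibits a neuron depends on its chloride gradient, which the importer NKCC1 (Slc12a2) and the exporter KCC2 (Slc12a5) set, and this gradient is known to be disturbed by ischemia.

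The 14 libraries are whole hemispheres from male mice on a C57BL/6J background, 12 weeks old, taken 48 h after a filament had closed the middle cerebral artery for 20 min (MCAO). Wild-type (Cort+/+) mice gave 3 contralateral (CL) and 3 ischemic (MCAO) libraries, and mice lacking the cortistatin gene in all cells (Cort-/-) gave 3 CL and 5 MCAO libraries. The study kept only replicates that grouped clearly, which bears on the spread within groups and on counts of groups without overlap, and the Cort+/+ MCAO libraries are those numbered 2, 3 and 4. CL hemispheres come from operated mice and not from sham-operated animals. The polyA RNA of each hemisphere was sequenced, and the depth, recovered from the RPKM values, was 25989680 to 43032300 reads on genes per library. Expression is given as RPKM, reads scaled to the length of the gene and the size of the library, which allows levels to be compared between genes. Cort, the deleted gene, held 64 to 139 reads in the 6 Cort+/+ libraries and 0 to 4 in the 8 Cort-/- libraries. In bulk tissue, fewer cells of a type and less RNA per cell cannot be told apart.

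The libraries carry the neuronal markers that a brain hemisphere should, with the sum of 8 pan-neuronal markers (Rbfox3, Snap25 and others) at 2119 to 2561 RPKM in CL and 1864 to 2215 RPKM in MCAO libraries and no marker of any list at 0. Over both genotypes 7 of these 8 markers were lower in MCAO hemispheres by the test described next, with a median difference of −0.10 on the log2 scale, 0 called and 3 (Snap25, Syt1 and Rbfox3) at an unadjusted limma p under 0.05. The summed markers of striatal spiny neurons and of microglia did not overlap between hemispheres. The sum of 10 markers of striatal spiny neurons, GABAergic projection cells that lie in the territory of the occluded artery, was 430.8 to 483.9 RPKM in the 6 CL and 208.3 to 405.2 RPKM in the 8 MCAO libraries. That of 8 microglial markers was 134.3 to 169.7 in CL and 188.3 to 394.7 in MCAO libraries. All 10 striatal markers were called lower and 7 of 8 microglial markers higher in MCAO hemispheres over both genotypes. Of 8 astrocyte markers 3 were called higher (Gfap by 1.84, Aqp4 by 0.58 and Aldh1l1 by 0.39 on the log2 scale) and 0 lower. The part of these cells in the values of the GABA genes was not tested.

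Differences between groups were tested with limma on log2(RPKM + 0.1) values, in 1 model of the 4 groups over 46102 genes. A gene was called at a Benjamini-Hochberg adjusted p under 0.05, and a difference is always MCAO minus CL, or Cort-/- minus Cort+/+, on that log2 scale. The mean of both genotypes is the average of the MCAO difference in Cort+/+ and in Cort-/- mice.

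Most GABA genes stood slightly lower in the ischemic hemisphere, and few of the differences passed the test. Of the 23 members whose mean reached 1 RPKM, 21 had a lower mean log2 level in MCAO than in CL hemispheres of Cort+/+ mice, with a median difference of −0.08, and 22 in Cort-/- mice, with a median of −0.18. Over both genotypes it was 22 of 23 with a median of −0.13. Of all 15063 genes that reached this mean, 55.3%, 59.2% and 58.5% were lower in these 3 comparisons, and their medians were −0.02, −0.03 and −0.03. The 8 pan-neuronal markers had medians of −0.11 in Cort+/+ mice, −0.11 in Cort-/- mice and −0.10 over both genotypes, beside −0.08, −0.18 and −0.13 for the members. In Cort+/+ mice the count and median depended on single libraries, with 17 of 23 lower and a median of −0.04 without MCAO replicate 3, and 17 of 23 and −0.07 without CL replicate 2. The median was also −0.04 with limma voom and −0.05 after rescaling to TPM. Under the other settings tried, 20 to 22 of the 23 members were lower over both genotypes, with a median between −0.15 and −0.09.

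**Figure D1:**
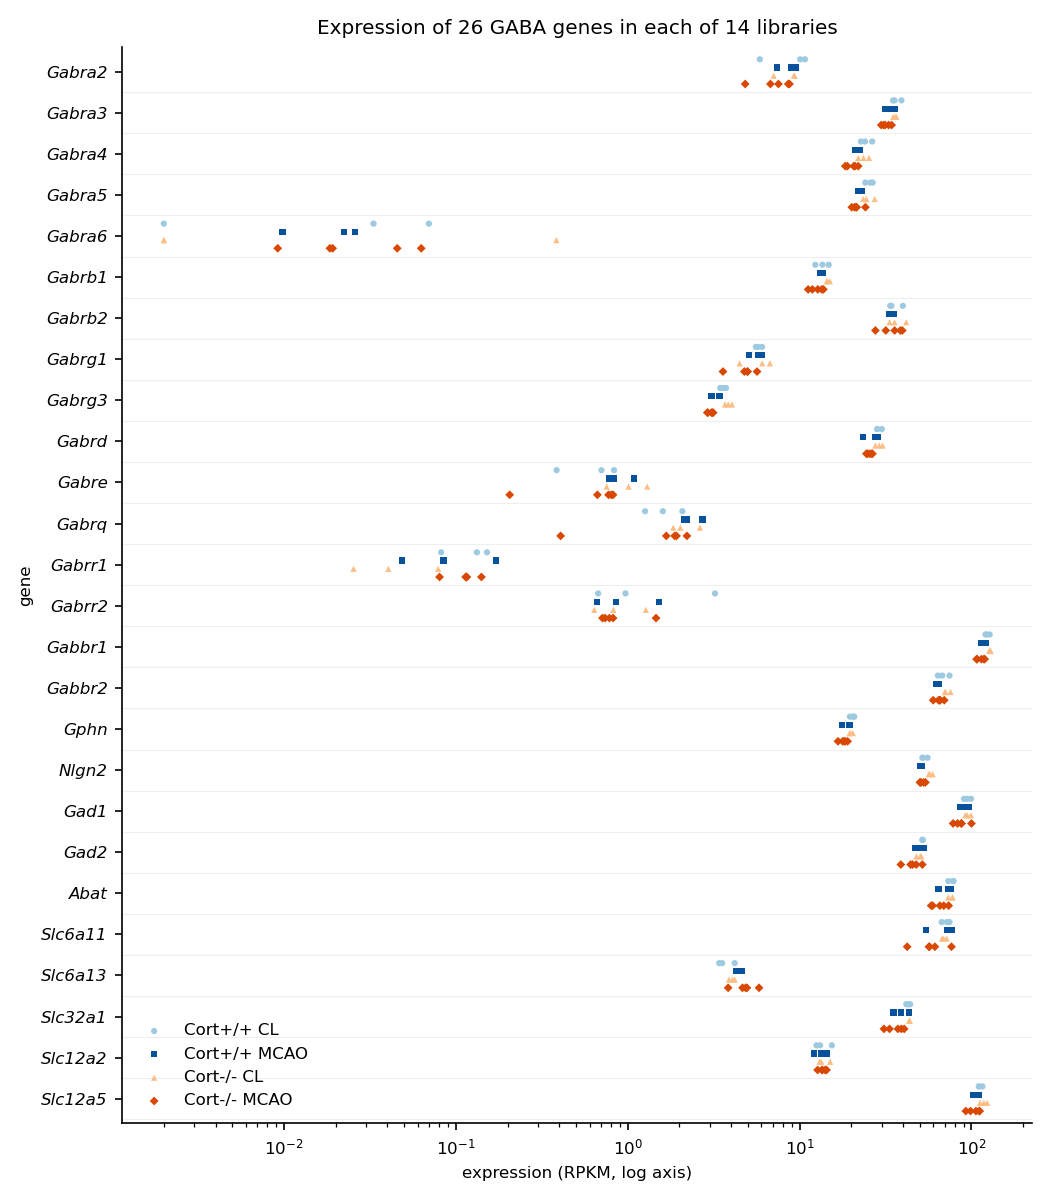
Expression of the 26 GABA genes in each of the 14 libraries (horizontal axis: RPKM on a log axis, with libraries at 0 drawn at the left edge of the points; symbols: the 4 groups). Levels run from Gabra6 and Gabrr1, with means of 0.0501 and 0.0988 RPKM over all libraries, to Slc12a5 and Gabbr1, with means of 109 and 120 RPKM, and most genes spread little between libraries.

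Over both genotypes, 4 members were called and all 4 were lower in MCAO hemispheres, namely the GABA-A subunits Gabrg3 and Gabra5, the scaffold Gphn and the adhesion molecule Nlgn2. Of all genes tested, 3.43% were called in that comparison. All 4 are among the 23 members of at least 1 RPKM, and of the 15063 genes of that level 1213 were called. Gabrg3 was also called in Cort-/- mice alone, where 1.72% of all genes were, and 614 of the 15063 genes of at least 1 RPKM. In Cort+/+ mice alone 0 members were called (limma, against 0.0108% of all genes), 4 had an unadjusted p under 0.05, and limma voom on recovered reads also called 0. At an unadjusted p under 0.05, 3 of the 23 members of at least 1 RPKM were lower in Cort+/+ mice, 13 in Cort-/- mice and 13 over both genotypes. The shares of all genes at that level that did the same were 4.83%, 12.9% and 15.4%.

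Most members overlapped between hemispheres. In Cort+/+ mice 5 of the 23 members (Gabra4, Gabra5, Gabrg3, Gphn and Nlgn2) had every MCAO library below every CL library, as did 7.29% of all genes of that level. In Cort-/- mice 11 members did, namely Gabra3, Gabra4, Gabrb1, Gabrg3, Gabrd, Gabbr1, Gabbr2, Gphn, Nlgn2, Slc32a1 and Slc12a5, against 9.43% of all genes. With both genotypes together, Gabrg3 and Gphn had all 8 MCAO libraries below all 6 CL libraries, which held for 1.83% of all genes.

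**Figure D2:**
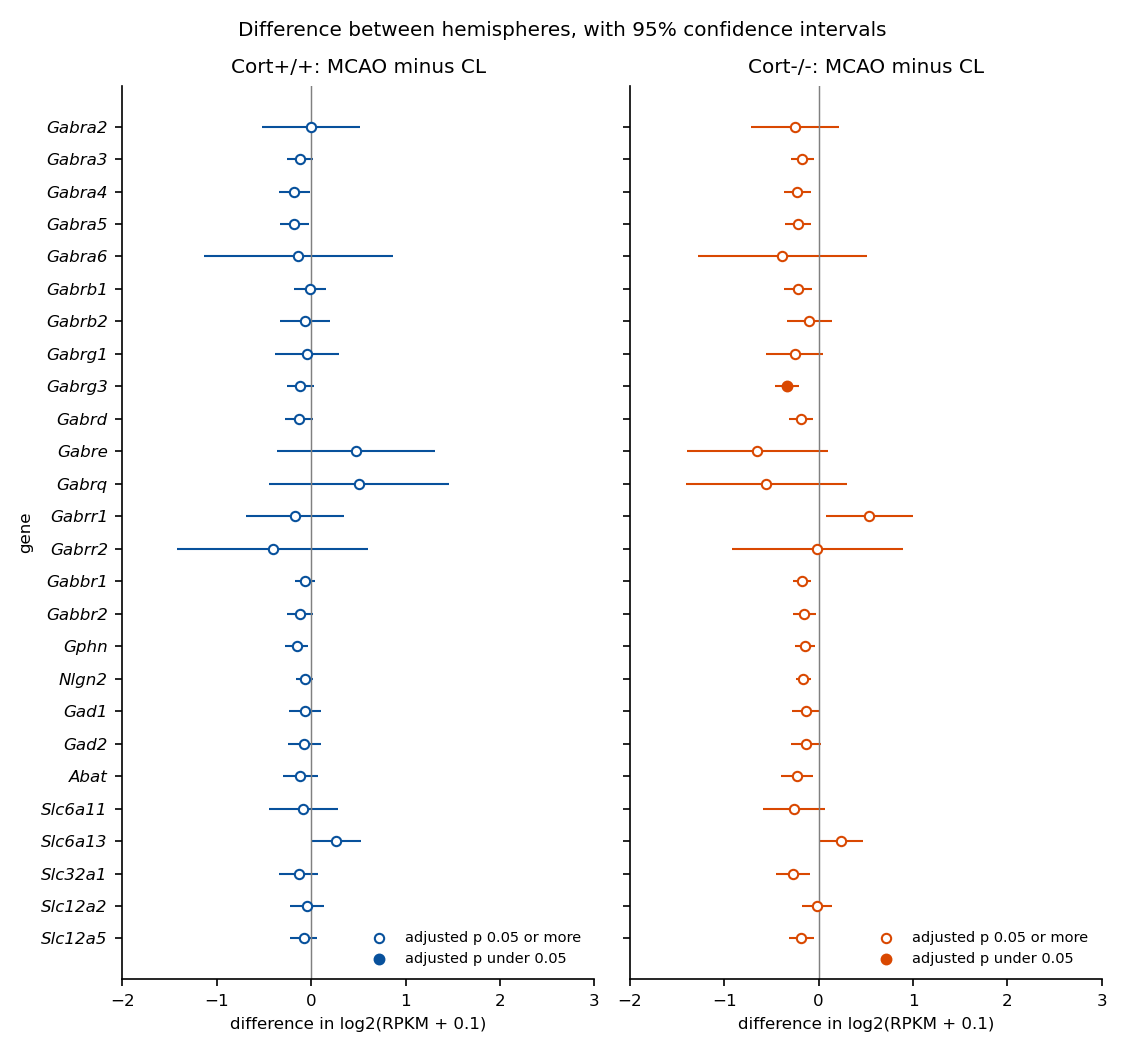
Difference between MCAO and CL hemispheres for each GABA gene (horizontal axis: difference in log2(RPKM + 0.1); points: limma estimate; lines: 95% confidence interval; filled points: adjusted p under 0.05) in Cort+/+ (left) and Cort-/- mice (right). Most estimates lie left of 0, Slc6a13 lies right of 0 in both genotypes (0.27 and 0.24), and only Gabrg3 in Cort-/- mice is filled.

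Gabrg3 encodes the gamma3 subunit, a scarce relative of the gamma subunits that tie GABA-A receptors to synapses. It lies on the minus strand of chromosome 7 of GRCm39 (56366213 to 57036936). In Cort+/+ mice it was at 3.58, 3.73 and 3.46 RPKM in the CL libraries and 3.07, 3.41 and 3.43 RPKM in the MCAO libraries. Its Cort-/- levels were 3.84, 4.04 and 3.68 RPKM in CL and 3.12, 2.91, 3.14, 2.93 and 3.07 RPKM in MCAO libraries. The groups did not overlap in either genotype, and the gap was wider in Cort-/- mice, from 3.86 ± 0.18 (SD, n = 3) to 3.03 ± 0.109 RPKM (SD, n = 5). By limma, it fell by 0.34 in mice without cortistatin (adjusted p = 0.0175, SE 0.06) and by 0.23 over both genotypes (SE 0.04, limma adjusted p = 0.0145). The difference in Cort+/+ mice was −0.12 (limma adjusted p = 0.763). The interaction, the Cort-/- minus the Cort+/+ difference, was −0.22 by limma and did not pass adjustment over all genes (unadjusted p = 0.0294, adjusted p = 1.00 by limma). Gabrg3 was called over both genotypes in 14 of the 14 fits that left out 1 library, but not with values rescaled to TPM (adjusted p = 0.0669). Its call in Cort-/- mice was lost without Cort-/- CL replicate 1, 2 or 3 (limma adjusted p = 0.0789, 0.0687 and 0.0524).

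Gabra5, for the alpha5 subunit of receptors known from hippocampus and outside synapses, neighbours Gabrg3 on the same strand (57055164 to 57240831). Its Cort+/+ levels were 25.8, 24.1 and 26.6 RPKM in CL and 21.8, 22.5 and 23.2 RPKM in MCAO libraries, without overlap. Cort-/- libraries held 24.4, 27.4 and 23.4 RPKM in CL and 21.5, 21.3, 24.2, 20.9 and 20.1 RPKM in MCAO libraries, where MCAO replicate 3 reached into the CL range. Over both genotypes it fell by 0.20 (SE 0.05, limma adjusted p = 0.0414).

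Gphn encodes gephyrin, the scaffold that anchors GABA-A and glycine receptors under inhibitory synapses, and lies on the plus strand of chromosome 12 (78272504 to 78732541). Cort+/+ libraries held 19.6, 20.5 and 20.8 RPKM in CL and 17.6, 17.6 and 19.5 RPKM in MCAO libraries. Its Cort-/- levels were 20.4, 19.7 and 19.6 RPKM in CL and 16.7, 18.3, 19.0, 17.8 and 18.4 RPKM in MCAO libraries. The nearest pair of the 2 hemispheres, at 19.53 RPKM in Cort+/+ MCAO replicate 4 and 19.56 RPKM in Cort-/- CL replicate 3, almost met. Over both genotypes Gphn fell by 0.15 (SE 0.04, limma adjusted p = 0.0471), with like estimates of −0.15 in Cort+/+ and −0.14 in Cort-/- mice.

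Nlgn2 encodes neuroligin-2, the adhesion molecule of inhibitory synapses that recruits gephyrin, and lies on the minus strand of chromosome 11 (69713948 to 69728613). Its Cort+/+ levels were 51.8, 52.4 and 55.6 RPKM in CL and 50.0, 51.6 and 50.6 RPKM in MCAO libraries. Cort-/- libraries held 56.5, 57.2 and 59.5 RPKM in CL and 50.9, 54.0, 50.4, 52.7 and 50.2 RPKM in MCAO libraries. Hemispheres did not overlap in either genotype, and the Cort-/- CL libraries were the highest of all 14. Over both genotypes Nlgn2 fell by 0.12 (SE 0.03, limma adjusted p = 0.0460). In Cort-/- mice the difference was −0.16 (limma adjusted p = 0.0546). Between CL hemispheres it was 0.12 higher in Cort-/- mice at an unadjusted limma p of 0.0170, with an adjusted p of 1.00.

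The calls of Gabra5, Gphn and Nlgn2 over both genotypes lay close to the threshold. Of the 14 fits that left out 1 library, Gabra5 was called in 4 (without Cort-/- CL replicate 3, Cort-/- MCAO replicate 3, Cort+/+ CL replicate 2 or Cort+/+ MCAO replicate 4), Gphn in 3 (without Cort-/- MCAO replicate 3, Cort+/+ CL replicate 1 or Cort+/+ MCAO replicate 4) and Nlgn2 in 2 (without Cort-/- MCAO replicate 2 or Cort+/+ CL replicate 1). The highest limma adjusted p among these fits was 0.108 for Gabra5, 0.127 for Gphn and 0.116 for Nlgn2, in each case without a Cort+/+ MCAO library (replicates 2, 3 and 2). All 3 were lower in MCAO hemispheres in every one of these fits, and 0 of them were called with values rescaled to TPM.

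**Figure D3:**
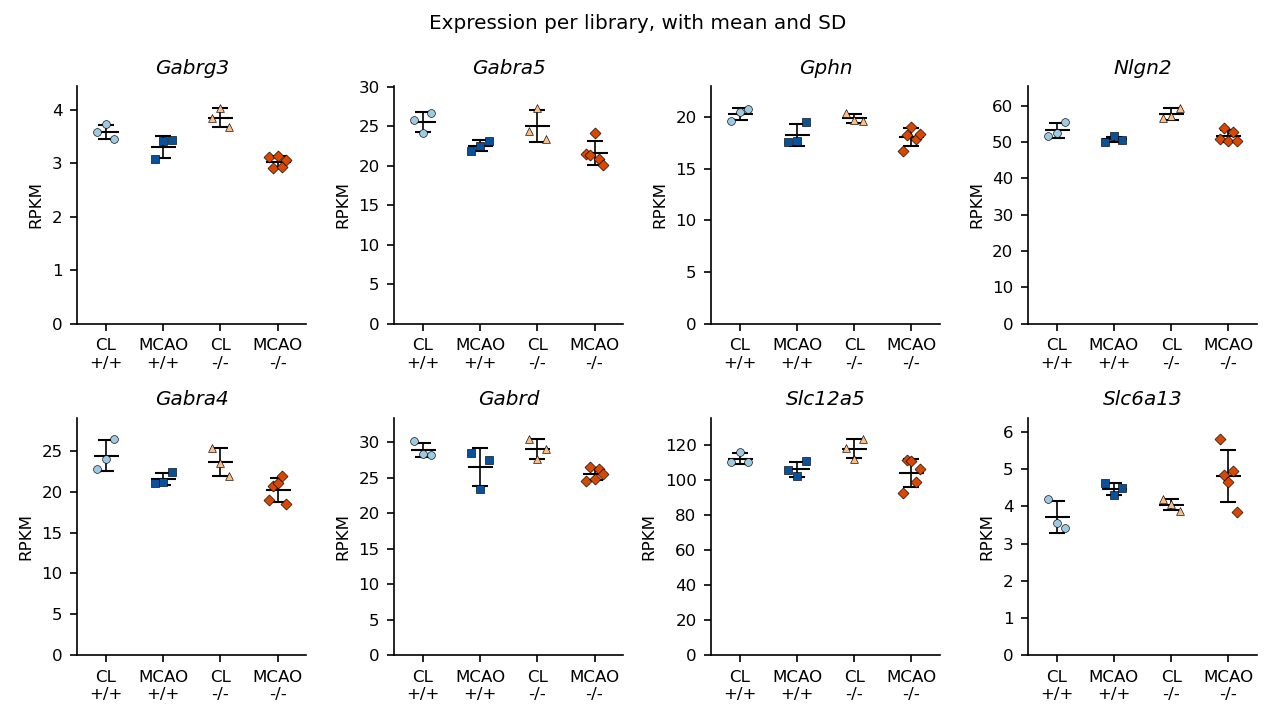
Expression per library (vertical axis: RPKM from 0; points: libraries; bars: mean and SD) of the 4 called genes in the upper row, and of Gabra4, Gabrd, Slc12a5 and Slc6a13 in the lower row, by group. Gabrg3 and Gphn have all MCAO points under all CL points, at most 3.43 RPKM against at least 3.46 for Gabrg3, while Slc6a13 stands higher in MCAO groups with 1 Cort-/- MCAO library at 3.84 RPKM inside the CL range.

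The starts of the 4 called genes are shown because these genes fell together. The 250 bases before the start of the canonical GENCODE M39 transcript were read from GRCm39 on the gene's strand, 5′ to 3′, at chr7:57036937-57037186 (minus strand) for Gabrg3, chr7:57159773-57160022 (minus) for Gabra5, chr11:69728614-69728863 (minus) for Nlgn2 and chr12:78272254-78272503 (plus) for Gphn. The Gabra5 window lies inside the annotated span of the gene, since longer transcripts start further upstream. Capitals mark the letters GGGCGG or their complement CCGCCC, the only one of 6 motifs searched that was found here.
Gabrg3: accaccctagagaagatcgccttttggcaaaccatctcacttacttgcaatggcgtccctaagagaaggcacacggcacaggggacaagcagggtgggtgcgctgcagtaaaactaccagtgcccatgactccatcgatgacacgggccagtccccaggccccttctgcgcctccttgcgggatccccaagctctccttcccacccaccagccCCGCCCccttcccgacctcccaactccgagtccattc
Gabra5: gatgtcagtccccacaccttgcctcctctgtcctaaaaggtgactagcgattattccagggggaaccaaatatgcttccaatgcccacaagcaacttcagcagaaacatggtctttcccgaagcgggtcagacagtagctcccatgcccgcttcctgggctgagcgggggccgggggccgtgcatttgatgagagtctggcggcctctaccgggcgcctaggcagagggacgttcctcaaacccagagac
Nlgn2: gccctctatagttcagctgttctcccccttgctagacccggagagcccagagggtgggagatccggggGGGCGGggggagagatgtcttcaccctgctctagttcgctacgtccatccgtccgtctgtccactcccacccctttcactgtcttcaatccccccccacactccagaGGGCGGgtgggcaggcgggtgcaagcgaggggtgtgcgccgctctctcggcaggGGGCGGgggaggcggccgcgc
Gphn: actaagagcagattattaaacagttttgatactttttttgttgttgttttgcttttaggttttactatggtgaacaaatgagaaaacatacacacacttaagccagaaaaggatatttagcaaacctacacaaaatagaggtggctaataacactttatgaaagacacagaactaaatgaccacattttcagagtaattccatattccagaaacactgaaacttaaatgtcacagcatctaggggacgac
The motifs were the TATA box TATAAA, the Sp1 box GGGCGG, the cAMP response element TGACGTCA and its core TGACG, which it contains, the E-box CACGTG and the Egr site GCGTGGGCG, each searched on both strands. In these 4 windows the only matches were to the Sp1 box, at 3 places in Nlgn2 and 1 in Gabrg3. The windows differed in base composition, with a GC content of 33.2% for Gphn, 58.4% for Gabra5, 60.8% for Gabrg3 and 68.0% for Nlgn2. Of all 26 members, 10 held the Sp1 box, against 36.3% of the 21757 protein-coding genes searched. The core TGACG was found in 3 members (18.0% of all genes), CACGTG in 2 (6.26%), and TATAAA, TGACGTCA and GCGTGGGCG in 0 (11.9%, 1.70% and 0.55%). A match is a run of letters in the window and not a shown binding site.

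Among all GABA-A subunits measured, Gabrb2, Gabra3 and Gabrd were the most abundant, with means of 35.3, 34.2 and 27.2 RPKM over all libraries. Gabra3, for an alpha subunit common in early development and in monoaminergic cells, was the highest of the 5 alpha members, at 38.4% ± 0.666 (SD, n = 3) of their summed RPKM in Cort+/+ CL and 39.4% ± 0.644 (SD, n = 5) in Cort-/- MCAO hemispheres. Gabra5 and Gabra4 followed with shares between 26.05% and 26.86% and between 24.9% and 25.6% in group means. Gabra2 held 8.97% to 9.99% and Gabra6 at most 0.142%. These shares were alike in the 4 groups beside a spread between libraries of up to 2.33 percentage points (SD of Gabra2 in Cort+/+ CL hemispheres). The summed level of the 14 subunits was 187 ± 5.16 RPKM (SD, n = 3) in Cort+/+ CL and 174 ± 6.68 (SD, n = 3) in Cort+/+ MCAO hemispheres. In Cort-/- mice it was 188 ± 7.32 (SD, n = 3) in CL and 165 ± 10.2 (SD, n = 5) in MCAO hemispheres. These shares and sums are descriptions without a test.

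Gabra4, whose alpha4 subunit pairs with delta in receptors outside synapses of forebrain neurons, just missed the threshold. Cort+/+ libraries held 22.7, 24.1 and 26.4 RPKM in CL and 21.1, 21.2 and 22.4 RPKM in MCAO libraries. Its Cort-/- levels were 25.4, 23.6 and 21.9 RPKM in CL and 19.0, 20.7, 21.0, 21.9 and 18.5 RPKM in MCAO libraries, where the nearest pair lay at 21.95 and 21.94 RPKM. The difference over both genotypes was −0.20 (95% confidence interval −0.31 to −0.09, limma adjusted p = 0.0514). Its partner Gabrd, for the delta subunit of tonic inhibition, had a difference of −0.16 (limma adjusted p = 0.0842) and group means of 28.9 ± 1.03 and 26.5 ± 2.70 RPKM in Cort+/+ (SD, n = 3 each) and 29.0 ± 1.40 (SD, n = 3) and 25.5 ± 0.867 RPKM (SD, n = 5) in Cort-/- CL and MCAO hemispheres. Gabrd lies 6.26 megabases from Cort on chromosome 4, and its level did not separate the genotypes, with a CL difference of 0.01 (95% confidence interval −0.14 to 0.15). Gabra3 had a difference of −0.15 over both genotypes (limma adjusted p = 0.0929).

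The beta subunits carry the GABA site together with alpha. Gabrb1 was at 15.0, 14.5 and 14.4 RPKM in Cort-/- CL and 11.9, 13.5, 13.8, 11.2 and 12.8 RPKM in Cort-/- MCAO libraries, without overlap, for a difference of −0.22 (limma adjusted p = 0.167). In Cort+/+ mice the difference was −0.02 (95% confidence interval −0.19 to 0.15), and the difference between the genotypes did not pass (limma adjusted p = 1.00). Gabrb2 spread widely in Cort-/- MCAO hemispheres, from 27.6 to 39.6 RPKM with a median of 35.7, and had a difference of −0.08 over both genotypes (95% confidence interval −0.26 to 0.10). Gabra2, of synapses and axon initial segments, ranged from 5.87 to 10.8 RPKM in CL and from 4.82 to 9.55 RPKM in MCAO libraries, and its difference of −0.13 had an interval of −0.48 to 0.22. Gabrg1, a gamma subunit also found in glia, ranged from 4.48 to 6.72 RPKM in CL and from 3.58 to 6.05 RPKM in MCAO libraries, with a difference of −0.15 and an interval of −0.38 to 0.08.

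The epsilon and theta subunits Gabre and Gabrq, known mainly from hypothalamus and brainstem, are scarce in these hemispheres and shared their lowest libraries. Gabre was at 0.704, 0.833 and 0.386 RPKM in Cort+/+ CL, 0.833, 0.779 and 1.09 RPKM in Cort+/+ MCAO, 0.754, 1.30 and 1.01 RPKM in Cort-/- CL and 0.822, 0.802, 0.773, 0.206 and 0.666 RPKM in Cort-/- MCAO libraries. Gabrq was at 1.60, 2.08 and 1.26 RPKM in Cort+/+ CL, 2.20, 2.13 and 2.73 RPKM in Cort+/+ MCAO, 1.84, 2.63 and 2.03 RPKM in Cort-/- CL and 2.21, 1.68, 1.92, 0.407 and 1.88 RPKM in Cort-/- MCAO libraries. Both genes were lowest in Cort-/- MCAO replicate 4 and next lowest in Cort+/+ CL replicate 3. The sum of 8 hypothalamic neuropeptide markers (Oxt, Avp, Pmch, Hcrt and others) was also lowest in these libraries, at 35.1 and 48.15 RPKM against 75.7 to 131 RPKM in the other 12. Cort-/- MCAO replicate 4 was lowest for other sums too. It held 60.8 RPKM of 6 thalamic markers (Tcf7l2, Prkcd and others), 20.8 RPKM of 9 cerebellar markers and 433.9 RPKM of 8 GABAergic interneuron markers. For Cort+/+ CL replicate 3 these sums were 76.3, 25.1 and 567.8 RPKM, the last being the highest of all libraries. Calb2 is in both the thalamic and the interneuron list. It was at 13.6 RPKM in Cort-/- MCAO replicate 4 and at 26.4 to 40.8 RPKM in the other libraries. No other thalamic marker was lowest in that library, and Prkcd, at 25.3 RPKM, was exceeded only in Cort+/+ CL replicate 1 (25.7 RPKM). The part of any of these markers in the values of Gabre and Gabrq was not tested. Gabre differed between hemispheres by 0.47 in Cort+/+ and −0.65 in Cort-/- mice, and by −0.35 in Cort-/- mice without MCAO replicate 4. Gabrq differed by 0.51 and −0.55, and by −0.16 in Cort-/- mice without that library. The differences between genotypes in these responses had unadjusted limma p of 0.0504 and 0.0959 and adjusted p of 1.00.

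**Figure D4:**
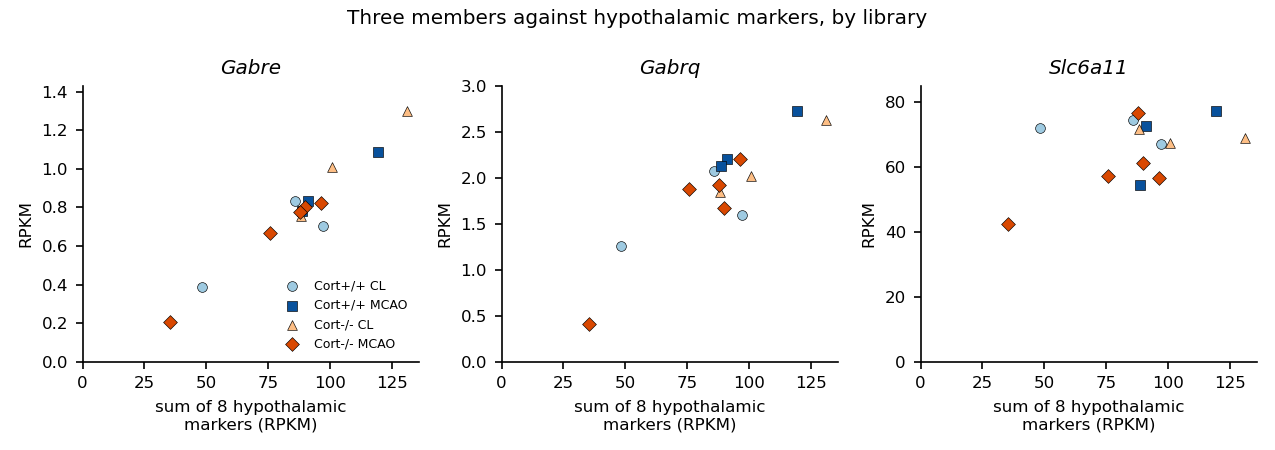
Levels of Gabre, Gabrq and, for comparison, the abundant transporter gene Slc6a11 (vertical axes: RPKM) against the summed level of 8 hypothalamic markers (horizontal axis: RPKM) in each library, with symbols for the 4 groups. Cort-/- MCAO replicate 4, at a marker sum of 35.1 RPKM, is lowest for all 3 genes, and Cort-/- CL replicate 2, at 131 RPKM, has the highest Gabre level (1.30 RPKM).

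The remaining receptor genes were close to absent or uneven. Gabra6, the alpha6 subunit of cerebellar granule cells, held 31 reads in Cort-/- CL replicate 3 and 0 to 6 reads in every other library. The rho subunit gene Gabrr1 held 2 to 16 reads per library, and its difference of 0.53 in Cort-/- mice (limma adjusted p = 0.289) rests on these few reads. Gabrr2, the other rho subunit measured, was at 3.22 RPKM (226 reads) in Cort+/+ CL replicate 1 and between 0.639 and 1.52 RPKM in the other 13 libraries, and no group difference was detectable (difference over both genotypes −0.21, 95% confidence interval −0.89 to 0.47).

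Both GABA-B subunits, which act together as one receptor, had negative estimates in both genotypes, and neither was called by this test. Gabbr1 was at 129, 127 and 128 RPKM in Cort-/- CL and 108, 118, 119, 107 and 114 RPKM in Cort-/- MCAO libraries, without overlap (difference −0.18, limma adjusted p = 0.0654). Its Cort+/+ levels were 121, 123 and 128 RPKM in CL and 119, 114 and 121 RPKM in MCAO libraries, which overlapped (difference −0.07, adjusted p = 0.887). Over both genotypes its limma adjusted p was 0.0671. Gabbr1 was called in that comparison in 1 of the 14 fits that left out 1 library and under 4 of 11 other settings. Gabbr2 was at 70.6, 70.1 and 75.6 RPKM in Cort-/- CL and 59.9, 65.7, 69.5, 64.4 and 65.6 RPKM in Cort-/- MCAO libraries, again without overlap (difference −0.15, limma adjusted p = 0.249). Its mean was 68.7 ± 5.46 and 63.2 ± 1.47 RPKM (SD, n = 3 each) in Cort+/+ CL and MCAO hemispheres. There the difference was −0.12 (limma adjusted p = 0.729).

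The genes that make, load and degrade GABA did not pass the test in any comparison. Gad1 (GAD67, the enzyme for most basal GABA) was at 94.8 ± 4.50 and 90.7 ± 5.22 RPKM (SD, n = 3 each) in Cort+/+ and at 95.3 ± 3.68 (SD, n = 3) and 87.2 ± 8.10 RPKM (SD, n = 5) in Cort-/- CL and MCAO hemispheres. Cort-/- MCAO replicate 3 held the highest Gad1 level of all libraries (100.04 RPKM) and Cort-/- MCAO replicate 1 the lowest (78.2 RPKM). Gad2 (GAD65, tied to synaptic vesicles) was at 51.9, 51.8 and 52.1 RPKM in Cort+/+ CL and at 47.1 to 52.8 RPKM in Cort+/+ MCAO libraries. In Cort-/- mice Gad2 ranged from 47.9 to 51.1 RPKM in CL and from 38.8 to 51.8 RPKM, with a median of 45.4, in MCAO libraries. Over both genotypes the differences were −0.10 for Gad1 (95% confidence interval −0.21 to 0.01) and −0.10 for Gad2 (−0.22 to 0.02). Abat, for the transaminase that breaks GABA down, had a difference of −0.17 (95% confidence interval −0.29 to −0.05, limma adjusted p = 0.146). Its mean was 76.2 ± 2.49 RPKM (SD, n = 3) in Cort-/- CL and 65.2 ± 6.47 RPKM (SD, n = 5) in Cort-/- MCAO hemispheres.

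No difference in the balance of both decarboxylase genes was detectable. The ratio of Gad1 to Gad2 within a library was 1.82 ± 0.0846 and 1.83 ± 0.00865 (SD, n = 3 each) in Cort+/+ and 1.92 ± 0.099 (SD, n = 3) and 1.92 ± 0.141 (SD, n = 5) in Cort-/- CL and MCAO hemispheres. The log2 ratio differed by 0.0035 between hemispheres (exact two-sided permutation test within genotypes over 1120 arrangements, p = 0.931, adjusted over the 2 ratios tested 0.931). The markers of GABAergic interneurons, cells that depend on these enzymes, overlapped between hemispheres, with a sum over 8 genes (Sst, Pvalb and others) of 451.2 to 567.8 RPKM in CL and 433.9 to 499.8 RPKM in MCAO libraries. Of these 8 genes 0 were called over both genotypes by limma, and 1 was lower at an unadjusted p under 0.05.

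Among the transporters, Slc32a1 (VGAT, which fills vesicles with GABA) was tight in Cort-/- CL hemispheres at 43.8, 43.4 and 43.6 RPKM. In Cort-/- MCAO hemispheres it was at 33.4, 39.1, 40.6, 31.0 and 37.3 RPKM, all lower (difference −0.27, limma adjusted p = 0.143). In Cort+/+ mice MCAO replicate 4, at 43.4 RPKM, lay within the CL range of 41.8 to 44.0 RPKM. Slc6a11 (GAT-3, the GABA transporter of astrocytes) ranged from 67.1 to 74.6 RPKM in CL and from 42.3 to 77.2 RPKM in MCAO libraries, with the lowest value in Cort-/- MCAO replicate 4 and a difference of −0.17 over both genotypes (95% confidence interval −0.42 to 0.07). The sum of 8 astrocyte markers was 855.7 to 1033 RPKM in CL and 926.1 to 1111 RPKM in MCAO libraries. Within this sum, Gfap alone ranged from 37.9 to 131.8 RPKM in CL and from 119.8 to 361.4 RPKM in MCAO libraries. The 8 markers did not move together. In Cort-/- mice 3 had a higher estimate in MCAO hemispheres and 5 a lower one, with Slc1a2 at −0.23 and Slc1a3 at −0.16. The part of these markers in the level of Slc6a11 was not tested.

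Slc6a13 (GAT-2) is a GABA transporter found mostly in meninges and at the blood-brain barrier. On the log2(RPKM + 0.1) scale it was the only member of at least 1 RPKM with a positive difference over both genotypes. Cort+/+ libraries held 4.19, 3.55 and 3.41 RPKM in CL and 4.63, 4.30 and 4.50 RPKM in MCAO libraries, without overlap. Cort-/- libraries held 4.19, 4.06 and 3.88 RPKM in CL and 5.81, 4.85, 4.66, 4.94 and 3.84 RPKM in MCAO libraries, where MCAO replicate 5 lay below all 3 CL libraries of that genotype. The difference of 0.25 over both genotypes (SE 0.08) had a limma adjusted p of 0.124. It was called without Cort-/- MCAO replicate 5. The sum of 8 meningeal and fibroblast markers was 27.45 to 34.1 RPKM in CL and 29.6 to 53.2 RPKM in MCAO libraries, and was highest in Cort-/- MCAO replicate 1, which also had the highest Slc6a13 level. Its part in the level of Slc6a13 was not tested.

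The chloride exporter gene was several times more abundant than the importer gene in every library. Slc12a5, the neuronal exporter KCC2, was at 111, 116 and 110 RPKM in Cort+/+ CL and 106, 102 and 111 RPKM in Cort+/+ MCAO libraries. Its Cort-/- levels were 118, 112 and 123 RPKM in CL and 92.8, 112, 111, 98.7 and 106 RPKM in MCAO libraries, all 5 below the CL range (lowest CL 112.3 and highest MCAO 111.6 RPKM). The difference was −0.08 in Cort+/+ (limma adjusted p = 0.887), −0.18 in Cort-/- mice (adjusted p = 0.180) and −0.13 over both (adjusted p = 0.166). Slc12a2, the importer NKCC1 of neurons, glia and choroid plexus, lay between 12.2 and 15.4 RPKM in all 14 libraries. Its difference over both genotypes was −0.03 with a 95% confidence interval of −0.15 to 0.09.

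The ratio of importer to exporter, a measure on transcripts and not on the chloride gradient itself, was 0.122 ± 0.0101 and 0.125 ± 0.00922 (SD, n = 3 each) in Cort+/+ CL and MCAO hemispheres. In Cort-/- mice it was 0.117 ± 0.00958 (SD, n = 3) in CL and 0.132 ± 0.00642 (SD, n = 5) in MCAO hemispheres. The log2 ratio was 0.10 higher in MCAO hemispheres over both genotypes, and 6 of 8 MCAO libraries lay above the CL mean of their genotype (exact two-sided permutation test within genotypes over 1120 arrangements, p = 0.0946, adjusted over 2 ratios 0.189). In Cort-/- mice alone it was 0.17 higher (exact permutation p = 0.0536, smallest possible 0.0179) and in Cort+/+ mice alone 0.04 higher (exact permutation p = 0.6, smallest possible 0.1). Without Cort-/- CL replicate 1 the exact permutation p over both genotypes was 0.0452, and without Cort+/+ CL replicate 2 it was 0.0161, since these libraries held the highest ratio of their CL group (0.127 and 0.133). Leaving out any other library gave an exact permutation p from 0.0686 (Cort-/- MCAO replicate 2) to 0.2375 (Cort+/+ MCAO replicate 2).

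**Figure D5:**
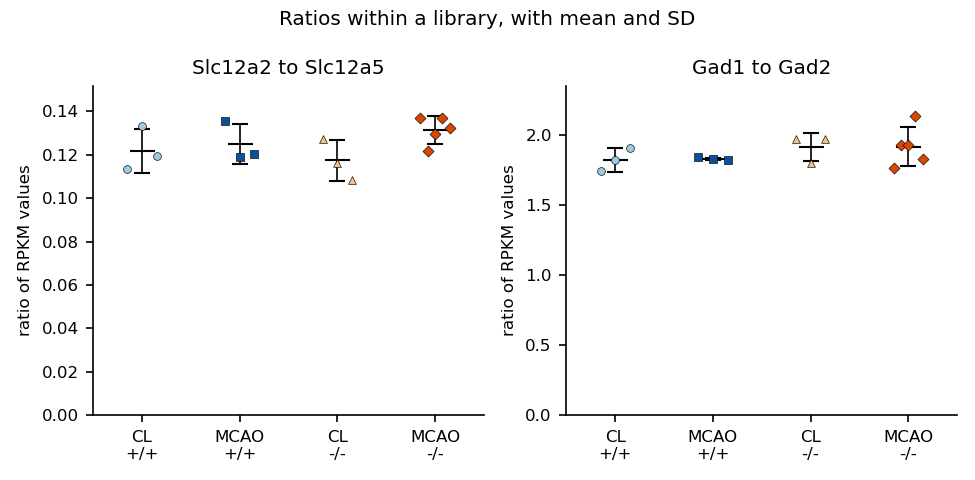
Ratios of RPKM values within each library (vertical axes from 0; points: libraries; bars: mean and SD) for Slc12a2 to Slc12a5 (left) and Gad1 to Gad2 (right), by group. The importer to exporter ratio is lowest in a Cort-/- CL library (0.108) and highest in a Cort-/- MCAO library (0.137), while the decarboxylase ratio lies between 1.74 and 2.14 in all groups.

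The genotype comparisons ask whether loss of cortistatin itself goes with other levels of the GABA genes. Between CL hemispheres of both genotypes, 0 of 26 members were called (limma, with 0.0152% of all genes called) and 2 had an unadjusted p under 0.05 (3.91% of all genes did), Nlgn2 with a difference of 0.12 and Gabrr1 with −0.59. Between MCAO hemispheres, 0 were called (0.0174% of all genes) and 0 had an unadjusted p under 0.05 (3.82% of all genes). By the interaction, 0 were called (0.00217% of all genes) and 2 had an unadjusted p under 0.05 (3.31% of all genes), Gabrg3 with −0.22 and Gabrr1 with 0.71. Limma voom on recovered reads called 0 members in all 3 comparisons. Slc6a11, an abundant member, spread widely between MCAO libraries, from 54.3 to 77.2 RPKM in Cort+/+ and from 42.3 to 76.5 RPKM in Cort-/- mice. Intervals for some other abundant members were narrow. Between MCAO hemispheres Gabbr1 differed by −0.06 (95% confidence interval −0.16 to 0.03), Gad1 by −0.06 (−0.21 to 0.09), Slc12a5 by −0.03 (−0.16 to 0.10) and Gphn by −0.02 (−0.12 to 0.09).

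Of 49 further genes of the pathway, 5 were called over both genotypes, where 3.43% of all genes were, with a median difference of −0.07 over all 49. These 5 are among the 47 of them that reached 1 RPKM. Of the 15063 genes of that level, 1213 were called over both genotypes. In mice without cortistatin 1 of each direction was called, where 1.72% of all genes were, and 614 of the 15063 genes of at least 1 RPKM. In the list of 18 genes of receptor trafficking and the inhibitory postsynapse, 3 were called lower and 0 higher. Shisa7, an auxiliary subunit of GABA-A receptors, fell by 0.30 over both genotypes (limma adjusted p = 0.0330, called in 6 of the 14 fits that left out 1 library, those without Cort-/- CL replicate 1, Cort+/+ CL replicate 1 or Cort-/- MCAO replicate 1, 2, 3 or 5). Lhfpl4, which ties GABA-A receptors to neuroligin-2, fell by 0.12 (limma adjusted p = 0.0354, called in 2 of 14 such fits, those without Cort-/- MCAO replicate 3 or Cort+/+ MCAO replicate 4), and was also called in Cort-/- mice alone (difference −0.18, adjusted p = 0.0285).

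In the list of 15 genes of chloride and bicarbonate handling, 2 were called higher and 0 lower over both genotypes. In that comparison 3.43% of all genes were called, and 1213 of the 15063 genes of at least 1 RPKM. Slc12a4, for KCC1, a chloride exporter of many cell types, was at 5.79 ± 0.268 and 7.54 ± 0.496 RPKM (SD, n = 3 each) in Cort+/+ and at 6.03 ± 0.224 (SD, n = 3) and 8.10 ± 1.06 RPKM (SD, n = 5) in Cort-/- CL and MCAO hemispheres. It rose by 0.39 over both genotypes (limma adjusted p = 0.00748, called in 14 of 14 fits that left out 1 library) and by 0.41 in Cort-/- mice (adjusted p = 0.0414). Slc12a7, for KCC4 of the same family, rose by 0.44 from means of 1.08 and 1.18 RPKM in CL hemispheres (limma adjusted p = 0.0388, called in 4 of 14 such fits, those without Cort-/- MCAO replicate 3 or 5, Cort+/+ CL replicate 1 or Cort+/+ MCAO replicate 4). The neuronal exporter gene Slc12a5 had a negative estimate in the same libraries in which Slc12a4 and Slc12a7 rose. In the lists of 12 genes of GABA and glutamine metabolism and of 4 GABA-B auxiliary genes, 0 were called by limma over both genotypes, with 3 and 2 at an unadjusted p under 0.05. Slc38a5, a glutamine transporter, had the largest uncalled difference of those with at least 1 RPKM (0.42, limma adjusted p = 0.404).

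Reads from overlapping genes limit some of these values. Of the 26 members, 18 overlap another annotated gene in GENCODE M39, 16 of them one on the opposite strand, among them Gad1 (Gad1os) and the pair Gabra4 and Gabrb1, on opposite strands, whose first parts overlap. The kit marks the strand, but the strand setting of the counting is not given in the sources used here.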

How the data were processed

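Polyadenylated RNA of 14 brain hemispheres was sequenced with a stranded kit. Per the study's methods, the authors aligned reads to GRCm39, counted them on GENCODE M28 genes and deposited RPKM values, 1 column per library without pooling. Scaling and gene lengths are not stated. Because each value is a whole number of reads over a length and a library size, reads were recovered. Each gene's length was chosen so that its values became whole reads (tolerance 0.02 reads). That 100% of 495656 values above 0 were whole follows in large part from this choice and is not a separate check.

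Genes above 0 in at least 2 libraries were fitted with limma 3.58.1 in R 4.3.3 (log2(RPKM + 0.1), 4 group means, eBayes with trend, Benjamini-Hochberg adjustment). A fold change on this scale understates that of low genes. Ratios were compared by exact permutation in Python 3.11.15 with scipy 1.17.1. The fit and the read recovery were tested on simulated data. Named genes are all members, other pathway genes called in any comparison, and up to 4 of the largest change. Some of these other genes are not reported here. Members and lists were chosen with earlier results of these data known. Positions come from GENCODE M39. Other pseudocounts, filters, scalings, weights, models, a replicate block and leaving out each library were run as alternatives.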

Additional observations from a re-analysis of the deposited data

Results flagged for a closer look

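Of the 26 members, 2 had 1 library far from the other 4 in the only group of 5 libraries, Cort-/- MCAO, and the same library, replicate 4, stood apart in both. Its Gabre level was 0.206 RPKM against 0.666 to 0.822 RPKM in the other 4 libraries, a gap of 0.748 of the whole range. Its Gabrr2 level was 1.46 RPKM against 0.713 to 0.822 RPKM, a gap of 0.854 of the range. Gaps of this size appear by chance in about 1 in 20 groups, and 26 groups were examined, 1 for each member.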

How the results depend on the processing

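The counts of called members in Cort+/+ mice, between genotypes in CL or MCAO hemispheres and in the interaction stayed at 0 under every alternative run. In Cort-/- mice the count of 1 became 3 with genes of a mean of at least 0.5 RPKM, 2 with quantile normalization, robust eBayes, array weights or limma voom on recovered reads, and 0 in a model of the 8 libraries of that genotype alone. Without 1 library it ranged from 0 to 3. Over both genotypes the count of 4 became 8 with genes of at least 0.5 RPKM, 2 with limma voom, 1 with median-ratio scaling and 0 after rescaling to TPM, and without 1 library it ranged from 1 to 4. The 2 called with limma voom were Gabrg3 and Gabbr1, so Gabra5, Gphn and Nlgn2 were not called there. With fewer genes tested under the filter, Gabra3, Gabra4, Gabrd and Gabbr1 joined the 4 called genes. For the other changes the cause was not tested. Rescaling to TPM moved the median of all genes of at least 1 RPKM by 0.03 on the log2 scale, and limma voom moved it by 0.04.

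Replicate numbers are shared between hemispheres, but same-numbered libraries did not deviate together, with correlations of 0.316 and −0.141 in Cort+/+ and of −0.064, −0.239 and 0.027 in Cort-/- mice, so the numbers were not taken as pairs. With a replicate block 0 members were called in Cort-/- mice and 0 over both genotypes, as were 0 of all genes. The difference in the log2 ratio of Gad1 to Gad2 (0.0035) was −0.028 in the 5 same-numbered pairs of the replicate block (exact sign-flip p = 0.625), and without 1 library it ranged from −0.0184 to 0.0202. That of Slc12a2 to Slc12a5 (0.10) ranged from 0.0714 to 0.134 and stayed positive. Gabre and Gabrq changed sign over both genotypes without Cort-/- MCAO replicate 4 (0.06 and 0.18 in place of −0.09 and −0.02), and neither was called in either case. The levels of Gabra6 and Gabrr1 rest on at most 31 and 16 reads.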

Other observations

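Cort-/- CL replicate 3, the library with 31 reads of Gabra6, was the highest of the 14 libraries for 3 of 9 cerebellar markers, at 0.5585 RPKM for Cbln3, 0.187 RPKM for Fat2 and 0.221 RPKM for Pcp2, where the highest values elsewhere were 0.266, 0.1645 and 0.116 RPKM. It was not the highest for the other 6 (Cbln1, Neurod1, Zic1, Zic2, Car8 and En2), and its En2 level of 0.279 RPKM was the second lowest in a range of 0.273 to 0.727 RPKM. The sum of all 9 cerebellar markers, in which more widely expressed genes weigh most, was 28.1 RPKM in this library and 20.8 to 30.0 RPKM in all 14.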
